A study of Mus musculus with 12 samples.

Results

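MHC class II antigen presentation was followed through 9 genes across 12 lung arrays: H2-Aa, H2-Ab1, H2-Eb1, Cd74, H2-DMa, H2-DMb1, H2-Oa, H2-Ob and Ciita. They were chosen by name, and every probe set annotated to one of them was read, which gave 19 of the 45037 non-control probe sets on the array. Of these 9 genes, all but H2-DMb1 stand among 18193 genes that have a probe set of their own. Of the 19 probe sets, 16 carried 1 gene symbol and 3 were shared between 2 genes. The filter on low signal asked for 3 or more of the 12 arrays above their own median, and 15 of the 19 passed it. At the level of genes, the brightest kept probe set stood for its gene, and 7 of the 9 were among the 10996 genes tested. The other 2 were Ciita, whose 3 probe sets all fell below the filter, and H2-DMb1, which was measured only by 2 probe sets that also match H2-DMb2.

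The study compared wild type mice with Gadd45a knockouts, with and without ventilator-induced lung injury (VILI), in 4 groups of 3 mice aged 8 to 12 weeks. The groups were wild type SB, wild type VILI, knockout SB and knockout VILI. The knockout is GADD45-/- in the titles, the genotype label of the ventilated knockouts reads GADD-/-, and the series title names Gadd45a. For VILI the mice were ventilated for 4 hours at 30 ml/kg and 65 breaths per min. What SB stands for is not said, and the design text gives wild type mice without VILI as controls. Nothing in the labels limits the knockout to one cell type. No strain, sex or array batch is given. Whole lung RNA was measured, so fewer cells of a type and less RNA per cell cannot be told apart.

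MHC class II molecules display peptides from endosomes to CD4 T cells, and in the lung they are carried by B cells, dendritic cells, macrophages and, in the mouse, also by type II epithelial cells. An alpha and a beta chain (H2-Aa with H2-Ab1, and the beta chain H2-Eb1 of the second isotype) assemble on the invariant chain Cd74, which fills the groove and steers the complex to endosomes. There H2-DM, made of H2-DMa and H2-DMb1 or H2-DMb2, exchanges the remnant of the invariant chain for peptide, and H2-DO, made of H2-Oa and H2-Ob, restrains H2-DM. Transcription of all these genes depends on the coactivator Ciita, which acts through factors bound to paired X and Y boxes near the gene starts.

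The promoters show this shared layout in letters. RefSeq promoter windows of assembly GRCm38.p6 were found for 6 of the 9 genes, and the 150 bases before the start are given 5′ to 3′ for the 5 of them that held an X box core followed by a Y box core. Capitals mark those cores: the Y box core ATTGG, and before it either the full X box core CCNNGNNAC (H2-DMb1, H2-Oa, H2-Ob) or its shorter form GNNAC (H2-Aa, H2-Eb1), which was added after the sequences had been seen.
H2-Aa, chr17:34287824-34287973, minus strand: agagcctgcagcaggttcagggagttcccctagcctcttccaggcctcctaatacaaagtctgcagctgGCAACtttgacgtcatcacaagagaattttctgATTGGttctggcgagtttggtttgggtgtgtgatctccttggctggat
H2-Eb1, chr17:34305717-34305866, plus strand: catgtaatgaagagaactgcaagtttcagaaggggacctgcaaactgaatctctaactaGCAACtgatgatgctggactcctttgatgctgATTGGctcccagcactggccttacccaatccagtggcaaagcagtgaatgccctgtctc
H2-DMb1, chr17:34153041-34153190, plus strand: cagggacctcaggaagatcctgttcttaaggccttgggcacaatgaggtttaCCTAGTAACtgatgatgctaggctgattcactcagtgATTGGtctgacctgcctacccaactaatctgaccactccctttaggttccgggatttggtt
H2-Oa, chr17:34092229-34092378, plus strand: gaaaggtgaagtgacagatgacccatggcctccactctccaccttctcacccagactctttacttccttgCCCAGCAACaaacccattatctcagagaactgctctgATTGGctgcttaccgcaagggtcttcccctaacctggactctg
H2-Ob, chr17:34238755-34238904, plus strand: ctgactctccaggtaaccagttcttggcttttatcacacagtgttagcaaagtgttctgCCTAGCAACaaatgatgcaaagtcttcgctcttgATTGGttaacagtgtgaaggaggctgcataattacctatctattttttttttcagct
The starts of the cores lay 37 (H2-DMb1, H2-Oa) and 34 (H2-Ob) bases apart with the full X box core. With the shorter form they lay 33 (H2-Aa) and 32 (H2-Eb1) bases apart, measured from a later base of the X box. In all 5 windows the Y box core began between 43 and 61 bases before the gene start. These windows are shown because they held a pair within the distance allowed, so their spacing was limited in advance. Both strands of the 250 bases before each start were searched, and a pair had to lie on the same strand with 15 to 40 bases between the starts. Over 32851 promoters of the same length, 33.8% held the Y box core, 41.1% the full X box core, 1.29% the full pair and 11.5% the pair with the shorter X core. The full pair was found in 3 of the 6 genes and the pair with the shorter core in 5. Neither window of H2-DMa held a pair. On chromosome 17 the class II genes follow each other in the RefSeq table in the order H2-Oa, H2-DMa, H2-DMb2, H2-DMb1, H2-Ob, H2-Ab1, H2-Aa, H2-Eb1.

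The medians of the arrays were 4.36 to 4.58 (log2), and within a group arrays correlated with r of 0.963 to 0.995. The number of arrays limits the precision. Gadd45a, the targeted gene, was 3.74 ± 0.38 (SE) lower on the log2 scale in knockout SB than in wild type SB lungs (limma with Benjamini-Hochberg adjustment, adjusted p = 0.00136) and 4.20 lower after VILI (adjusted p = 0.00126). The arrays of knockout SB replicate 3 and knockout VILI replicate 3 stood apart. They were the 2 highest of the 12 for 7 of 7 class II genes tested and for 10 of 10 B cell markers tested. The mean log2 level of those B cell markers was 9.04 and 9.81 on these arrays and 4.73 to 6.99 on the other 10. T cell markers (4 tested) averaged 7.34 and 8.08 against 5.17 to 6.51, and dendritic cell markers (7 tested) 7.84 and 8.35 against 6.61 to 7.32. Differences of the 7 class II genes tested that involve knockout lungs are therefore given with and without both arrays.

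**Figure D1:**
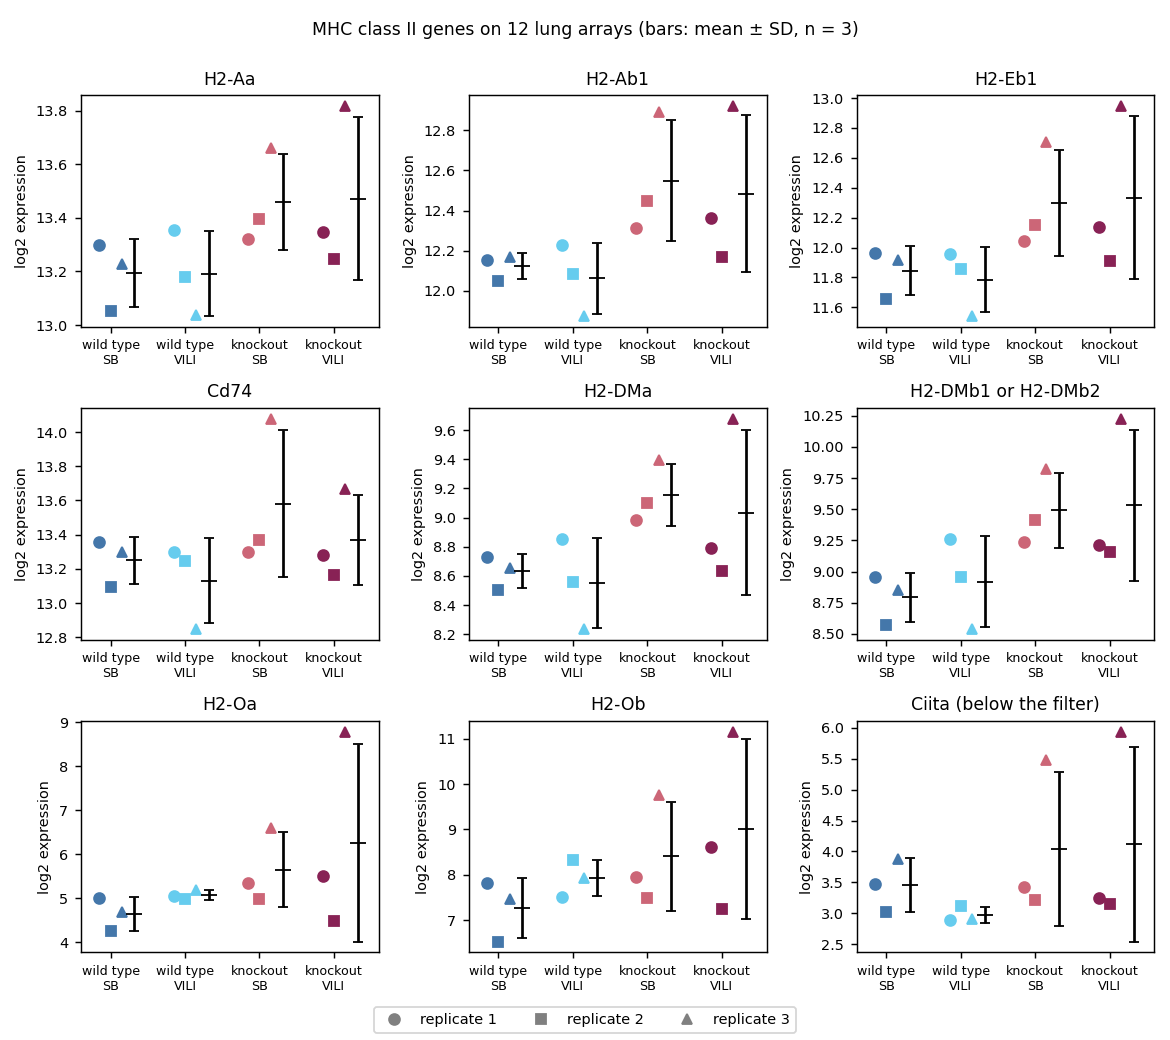
Deposited log2 expression (vertical axes, scaled separately for each gene) on each of the 12 arrays, by group, with the symbol giving the replicate number and bars the group mean ± SD (n = 3). Replicate 3 of knockout SB and of knockout VILI (triangles) are the 2 highest points in each of the 9 panels, and values of different panels come from different probe sets and are not comparable in level.

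The chain genes and Cd74 were bright on every array. Over the 12 arrays their brightest probe sets spanned 0.78 (H2-Aa) to 1.41 (H2-Eb1) on the log2 scale. H2-Aa, the alpha chain of the first isotype, read 13.30, 13.05 and 13.23 in wild type SB lungs, 13.35, 13.18 and 13.04 in wild type VILI lungs, 13.32, 13.39 and 13.66 in knockout SB lungs, and 13.35, 13.25 and 13.82 in knockout VILI lungs (replicates 1, 2 and 3, log2). Its beta chain H2-Ab1 read 12.15, 12.05 and 12.17 in wild type SB lungs, 12.23, 12.09 and 11.87 in wild type VILI lungs, 12.31, 12.45 and 12.89 in knockout SB lungs, and 12.36, 12.17 and 12.92 in knockout VILI lungs. For both chains all 3 knockout SB arrays lay above all 3 wild type SB arrays, and after VILI the genotypes overlapped. H2-Eb1, the beta chain of the second isotype, read 11.96, 11.66 and 11.92 in wild type SB lungs, 11.96, 11.86 and 11.54 in wild type VILI lungs, 12.04, 12.15 and 12.70 in knockout SB lungs, and 12.14, 11.91 and 12.95 in knockout VILI lungs. It had the same order, with the SB genotypes apart and the VILI genotypes overlapping. The invariant chain Cd74 read 13.36, 13.10 and 13.30 in wild type SB lungs, 13.30, 13.25 and 12.85 in wild type VILI lungs, 13.30, 13.37 and 14.08 in knockout SB lungs, and 13.28, 13.16 and 13.66 in knockout VILI lungs. Its genotypes overlapped in both treatments, and its highest array was knockout SB replicate 3. Wild type VILI replicate 3 was the lowest array for 5 of the 7 genes (these 4 and H2-DMa).

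The genes of the peptide editor showed a like order at lower signal. H2-DMa, the alpha chain of H2-DM, read 8.73, 8.51 and 8.66 in wild type SB lungs, 8.85, 8.56 and 8.23 in wild type VILI lungs, 8.98, 9.10 and 9.39 in knockout SB lungs, and 8.79, 8.63 and 9.68 in knockout VILI lungs. The SB genotypes did not overlap, and the VILI genotypes did. The brighter of the probe sets shared by H2-DMb1 and H2-DMb2, both beta chains of H2-DM, averaged 8.79 ± 0.20 (SD, n = 3) in wild type SB lungs, 8.92 ± 0.36 in wild type VILI lungs, 9.49 ± 0.30 in knockout SB lungs and 9.53 ± 0.60 in knockout VILI lungs. How much of that signal belongs to either gene cannot be read from these probe sets.

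H2-Oa and H2-Ob, the chains of the inhibitor H2-DO, varied most. H2-Oa read 5.01, 4.25 and 4.68 in wild type SB lungs, 5.05, 4.98 and 5.19 in wild type VILI lungs, 5.36, 4.99 and 6.61 in knockout SB lungs, and 5.50, 4.48 and 8.79 in knockout VILI lungs. H2-Ob read 7.81, 6.51 and 7.47 in wild type SB lungs, 7.52, 8.33 and 7.94 in wild type VILI lungs, 7.96, 7.49 and 9.77 in knockout SB lungs, and 8.62, 7.24 and 11.16 in knockout VILI lungs. The spread within the knockout groups came mostly from replicate 3. Replicates 1 and 2 of knockout VILI lungs also lay apart, at 5.50 and 4.48 for H2-Oa and 8.62 and 7.24 for H2-Ob. Replicate 3 of knockout VILI lungs exceeded the mean of replicates 1 and 2 by 3.80 for H2-Oa and 3.23 for H2-Ob (log2), against 0.52 for H2-Aa, 0.66 for H2-Ab1, 0.92 for H2-Eb1, 0.97 for H2-DMa and 0.44 for Cd74. In knockout SB lungs the corresponding gaps were 1.43 and 2.05 for H2-Oa and H2-Ob and 0.30 to 0.74 for the other 5. The lowest array for both H2-DO genes was wild type SB replicate 2, which was also the lowest for 8 of 10 B cell markers.

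Ciita, the coactivator on which the others depend, was near the bottom of the scale on 10 arrays. Its brightest probe set read 3.47, 3.01 and 3.88 in wild type SB lungs, 2.90, 3.12 and 2.90 in wild type VILI lungs, 3.42, 3.21 and 5.47 in knockout SB lungs, and 3.25, 3.15 and 5.94 in knockout VILI lungs. Only the 2 knockout replicate 3 arrays exceeded the array median, so Ciita did not enter the test. With the filter removed, its knockout minus wild type difference was 0.58 ± 0.76 (SE) in SB and 1.14 ± 0.76 after VILI (limma, adjusted p = 0.682 and 0.644). With knockout replicate 3 of both treatments left out these differences were -0.14 ± 0.21 and 0.23 ± 0.21 (limma, adjusted p = 0.710 and 0.952), so the one in SB changed sign and the one after VILI shrank. The arrays of that probe set did not overlap after VILI, with wild type at 2.90 to 3.12 and knockout at 3.15 to 5.94. The arrays nearest each other, at 3.12 and 3.15, lay at low signal. Among the genes that passed the filter, 6.64% did not overlap in that direction.

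Class II expression in knockout lungs was read above wild type under SB for every gene tested, by amounts that did not pass the test. The question here was whether lungs without Gadd45a, a stress-inducible protein, had another class II level in the lung that was not ventilated at high volume. The log2 difference, knockout minus wild type, was 0.27 ± 0.15 (SE) for H2-Aa, 0.42 ± 0.19 for H2-Ab1, 0.45 ± 0.25 for H2-Eb1, 0.33 ± 0.21 for Cd74 and 0.53 ± 0.25 for H2-DMa. For the H2-DO genes it was 1.01 ± 0.84 for H2-Oa and 1.14 ± 0.85 for H2-Ob. This fit did not pair the arrays by replicate number. In limma with Benjamini-Hochberg adjustment over 10996 genes, 0 of 7 passed the threshold of 0.05 (adjusted p from 0.481 for H2-Ab1 to 0.713 for H2-Oa), against 0.109% of all genes. At an unadjusted p under 0.05 the count was 1 (H2-Ab1), against 10.1% of all genes. The median over the 7 was 0.45, beside -0.06 over all genes tested. The arrays of the genotypes did not overlap for 4 of the 7 (H2-Aa, H2-Ab1, H2-Eb1 and H2-DMa), all higher in the knockout, and for 3.76% of all genes in that direction.

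Without the 2 knockout replicate 3 arrays the SB differences were smaller for all 7 genes. They were 0.16 for H2-Aa, 0.25 for H2-Ab1, 0.25 for H2-Eb1, 0.083 for Cd74, 0.41 for H2-DMa, 0.53 for H2-Oa and 0.46 for H2-Ob (limma, adjusted p from 0.306 to 0.814). Outside H2-DO, the largest remaining difference was that of H2-DMa and the smallest that of Cd74. With all arrays, B cell markers had a median difference of 1.37 in SB with 10 of 10 positive, T cell markers 1.21 with 4 of 4 positive, and dendritic cell markers 0.25 with 6 of 7 positive. Without the 2 arrays the medians were 0.47 with 8 of 10 positive, 0.91 with 4 of 4 positive and 0.18 with 6 of 7 positive. None of these markers passed the threshold with or without the 2 arrays. Some defining markers could not be used: Pax5, Cr2 and Blk of the B cell list and Flt3, Batf3, Xcr1 and Siglech of the dendritic cell list fell below the filter, and Xcr1 read at most 2.02. The T cell list lost most, with 4 of its 12 genes tested and Cd3e, Cd4, Cd5, Cd6, Cd8a and Trat1 below the filter. The part of these cells in the class II differences was not tested.

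After VILI the genotype difference was of similar size and again did not pass the test. It was 0.28 ± 0.15 (SE, log2) for H2-Aa, 0.42 ± 0.19 for H2-Ab1, 0.55 ± 0.25 for H2-Eb1, 0.24 ± 0.21 for Cd74, 0.48 ± 0.25 for H2-DMa, 1.18 ± 0.84 for H2-Oa and 1.08 ± 0.85 for H2-Ob. In limma 0 of 7 passed (adjusted p 0.724 to 0.816), against 0.1% of all genes, and 2 had an unadjusted p under 0.05 (H2-Ab1 and H2-Eb1), against 6.88% of all genes. For 0 of 7 were the knockout arrays all above the wild type arrays, against 6.64% of all genes. The median was 0.48, beside -0.01 over all genes. Without the 2 knockout replicate 3 arrays the differences were 0.11 for H2-Aa, 0.20 for H2-Ab1, 0.24 for H2-Eb1, 0.091 for Cd74, 0.16 for H2-DMa, -0.084 for H2-Oa and 0.0013 for H2-Ob (limma, each adjusted p = 1.0). The difference of H2-Oa thus changed sign and that of H2-Ob went to near 0.

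Averaged over both treatments, which uses all arrays, the knockout minus wild type difference was 0.27 ± 0.11 (SE, log2) for H2-Aa, 0.42 ± 0.14 for H2-Ab1, 0.50 ± 0.18 for H2-Eb1, 0.28 ± 0.15 for Cd74, 0.51 ± 0.18 for H2-DMa, 1.09 ± 0.60 for H2-Oa and 1.11 ± 0.60 for H2-Ob. In limma 0 of 7 passed (adjusted p from 0.197 for H2-Ab1 to 0.415 for H2-Oa), against 0.455% of all genes. At an unadjusted p under 0.05 there were 4 (H2-Aa, H2-Ab1, H2-Eb1 and H2-DMa), against 14.6% of all genes. Without the 2 knockout replicate 3 arrays the differences were 0.14, 0.23, 0.24, 0.087, 0.29, 0.22 and 0.23 in the order H2-Aa, H2-Ab1, H2-Eb1, Cd74, H2-DMa, H2-Oa and H2-Ob (limma, adjusted p 0.292 to 0.795). All 7 remained positive, and each was smaller than with these arrays.

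**Figure D2:**
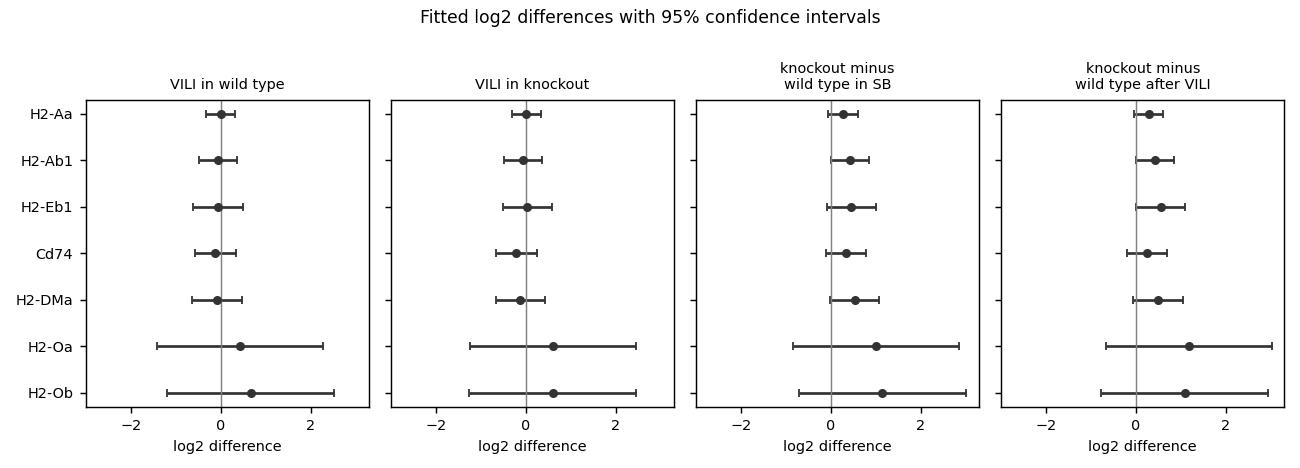
Fitted log2 differences (horizontal axes) of the 7 class II genes tested in 4 comparisons, with points for the limma estimate and bars for its 95% confidence interval. The VILI differences lie close to 0 for the brightest probe sets of the chain genes, Cd74 and H2-DMa, all 7 genotype differences are positive in both treatments, and the intervals of H2-Oa and H2-Ob are the widest.

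With VILI 0 of the 7 class II genes tested passed in either genotype. On the brightest probe sets of the chain genes, Cd74 and H2-DMa the estimates lay near 0. This comparison asks how the lung differs after ventilation at high tidal volume. In wild type lungs the log2 difference, VILI minus SB, was -0.0021 ± 0.15 (SE) for H2-Aa, -0.063 ± 0.19 for H2-Ab1, -0.061 ± 0.25 for H2-Eb1, -0.12 ± 0.21 for Cd74 and -0.082 ± 0.25 for H2-DMa. The 95% confidence intervals of these 5 genes ran from -0.63 at the lowest to 0.49 at the highest. H2-Oa was at 0.43 ± 0.84 and H2-Ob at 0.66 ± 0.85. Other probe sets of the chain genes gave higher values in wild type lungs: 0.30 ± 0.21 and 0.31 ± 0.23 for the other 2 of H2-Ab1, and 0.074 to 0.37 for the other 3 of H2-Aa (limma over probe sets, adjusted p 0.351 to 0.862). In limma 0 of 7 passed (adjusted p 0.695 to 0.996), against 2.64% of all genes, and 0 had an unadjusted p under 0.05, against 21.2% of all genes.

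In knockout lungs the VILI minus SB difference was 0.011 ± 0.15 (SE, log2) for H2-Aa, -0.066 ± 0.19 for H2-Ab1, 0.034 ± 0.25 for H2-Eb1, -0.21 ± 0.21 for Cd74, -0.12 ± 0.25 for H2-DMa, 0.61 ± 0.84 for H2-Oa and 0.60 ± 0.85 for H2-Ob. In limma 0 of 7 passed (adjusted p 0.584 to 0.973), against 4.47% of all genes, and 0 had an unadjusted p under 0.05, against 22.2% of all genes. Without the 2 knockout replicate 3 arrays H2-Aa was at -0.061, H2-Ab1 at -0.11, H2-Eb1 at -0.070 and Cd74 at -0.11. H2-DMa was then at -0.33, H2-Oa at -0.18 and H2-Ob at 0.21 (limma, adjusted p for the 7 from 0.376 to 0.870). The interaction, that is the VILI difference in knockout minus the one in wild type lungs, ran from -0.093 for Cd74 to 0.17 for H2-Oa. It was 0.013 for H2-Aa, -0.0025 for H2-Ab1, 0.095 for H2-Eb1, -0.042 for H2-DMa and -0.063 for H2-Ob. In limma 0 of 7 passed (each adjusted p = 1.0), against 0% of all genes, and 0 had an unadjusted p under 0.05, against 2.62% of all genes. The 95% confidence interval of the interaction was -0.59 to 0.59 for H2-Ab1 and -2.44 to 2.79 for H2-Oa. The other 2 H2-Ab1 probe sets gave interactions of -0.26 (-0.92 to 0.40) and -0.29 (-0.99 to 0.42). The interval of the brightest H2-Ab1 probe set reached past its genotype difference in either treatment. Without the 2 knockout replicate 3 arrays the interaction was -0.059 for H2-Aa, -0.051 for H2-Ab1, -0.0097 for H2-Eb1 and 0.0079 for Cd74. It was then -0.25 for H2-DMa, -0.61 for H2-Oa and -0.46 for H2-Ob (limma, adjusted p for the 7 from 0.877 to 0.994).

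The probe sets of a gene did not all give the same size. All 15 kept probe sets were positive for knockout minus wild type in SB, from 0.20 to 1.17 (log2), with 9 of 15 not overlapping between genotypes, against 7.33% of all kept probe sets in that direction. In limma over 23082 probe sets 0 of 15 passed (lowest adjusted p 0.322), against 0.0996% of all kept probe sets, and 5 had an unadjusted p under 0.05, against 10.6%. For H2-Ab1 the brightest probe set gave 0.42, and the other 2 gave 0.73 ± 0.21 (SE) and 0.76 ± 0.23. The probe set behind the last value read 11.23, 11.12 and 11.15 in wild type SB lungs, 11.90, 11.56 and 10.96 in wild type VILI lungs, 11.80, 11.86 and 12.13 in knockout SB lungs, and 11.78, 11.69 and 12.39 in knockout VILI lungs. All 3 knockout SB arrays of that probe set lay above all 3 wild type SB arrays, and wild type VILI replicate 3 was its lowest array. For H2-Aa, 1 of the 4 probe sets gave 0.61 ± 0.19 and the other 3 gave 0.20 to 0.27. The highest and lowest value lay 0.41 apart for H2-Aa and 0.34 apart for H2-Ab1. When the 2 knockout replicate 3 arrays were left out, all 15 were still positive, from 0.053 to 0.66, and 0 passed (limma, lowest adjusted p 0.143). H2-Ab1 was then at 0.25, 0.60 and 0.66, and the H2-Aa probe set with the largest difference at 0.50.

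The dimmest kept H2-Aa probe set differed from the others in its VILI values. It read 8.28, 8.30 and 8.51 in wild type SB lungs, 8.87, 8.76 and 8.56 in wild type VILI lungs, 8.64, 8.49 and 8.76 in knockout SB lungs, and 8.82, 8.86 and 9.67 in knockout VILI lungs. In each genotype all VILI arrays lay above all SB arrays, a separation whose share over all kept probe sets was not computed. Averaged over genotypes its difference was 0.43 ± 0.15 (SE; limma, adjusted p = 0.0735), whereas the other 3 H2-Aa probe sets gave 0.0046 to 0.17. In that average it was the 1 of 15 class II probe sets with an unadjusted p under 0.05, against 30.7% of all kept probe sets. Without both knockout replicate 3 arrays its difference was 0.32 ± 0.096 (limma, adjusted p = 0.0627), and the other 3 gave -0.031 to 0.11. The probe sets shared by H2-DMb1 and H2-DMb2 gave 0.70 ± 0.29 and 0.32 ± 0.20 for the genotype difference in SB. The probe set shared by H2-Ob and Gm20506 gave 1.17 ± 0.76, beside 1.14 ± 0.85 for the one annotated to H2-Ob alone. Without the 2 arrays these were 0.53 and 0.26 for the shared H2-DMb probe sets, 0.36 for the one shared with Gm20506 and 0.46 for H2-Ob. After VILI all 15 were again positive and 1 of 15 did not overlap, against 6.49% of all kept probe sets in that direction, with 0 of 15 past the threshold and 4 with an unadjusted p under 0.05, against 5.98% of all kept probe sets. Without the 2 arrays 14 of 15 were positive after VILI, H2-Oa being the exception.

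**Figure D3:**
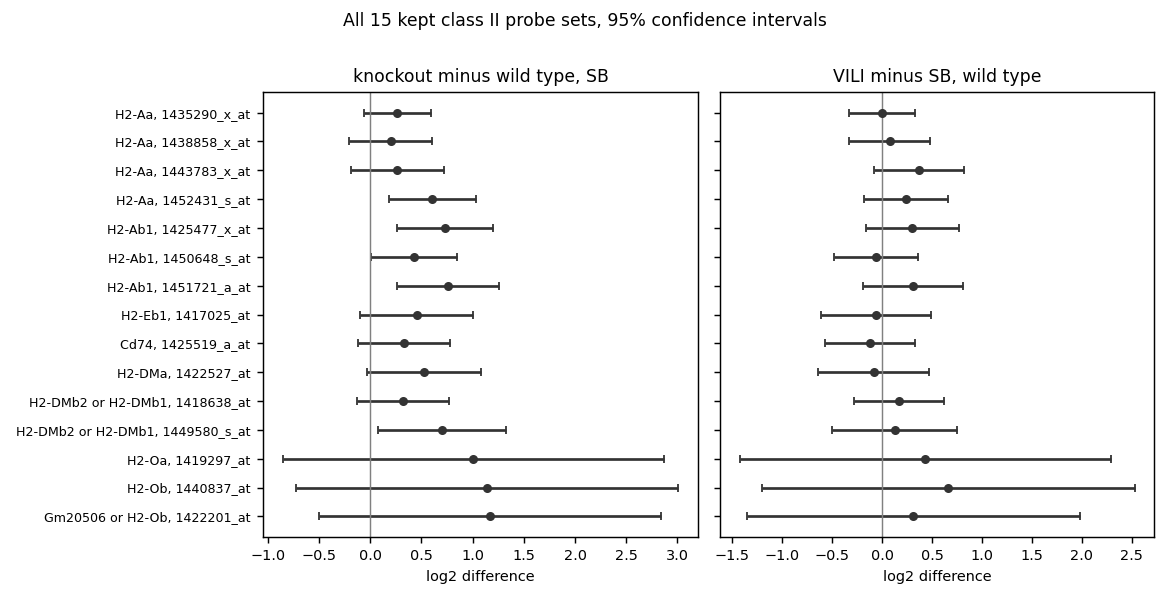
Log2 differences (horizontal axes) of all 15 kept class II probe sets for knockout minus wild type in SB (left) and VILI minus SB in wild type (right), with points for the limma estimate and bars for its 95% confidence interval. All 15 points lie right of 0 on the left, where the 2 dimmer H2-Ab1 probe sets at 0.73 and 0.76 stand beyond the brightest at 0.42, and 10 of 15 lie right of 0 on the right.

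The class II genes varied together from array to array, in a pair of blocks. Over the 12 arrays Pearson's r between 2 of the 7 genes ran from 0.643 to 0.988 (21 pairs), a description of arrays that share groups and the same 2 outlying libraries. Without the 2 knockout replicate 3 arrays (n = 10), the 10 pairs among H2-Aa, H2-Ab1, H2-Eb1, H2-DMa and Cd74 stayed at 0.813 to 0.960, and H2-Oa with H2-Ob was at 0.873. The 10 pairs that join H2-Oa or H2-Ob with one of the other 5 dropped from 0.643 to 0.884 over 12 arrays to 0.0921 to 0.452 over 10. The H2-DO genes instead followed the mean of the 10 B cell markers, with r = 0.825 for H2-Oa and 0.945 for H2-Ob over these 10 arrays, against 0.227 to 0.495 for the other 5 genes. With the T cell markers, r was 0.452 to 0.613 for the H2-DO genes and 0.507 to 0.754 for the others. With the dendritic cell markers it was -0.0407 to 0.0289 and 0.357 to 0.554, and with the macrophage and monocyte markers -0.141 to -0.0165 and 0.124 to 0.280. H2-DO is known as a product mainly of B cells, while the chain genes and Cd74 are made by all class II-bearing cells. The part of these cells in the correlations was not tested, and each r pools arrays of all groups.

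**Figure D4:**
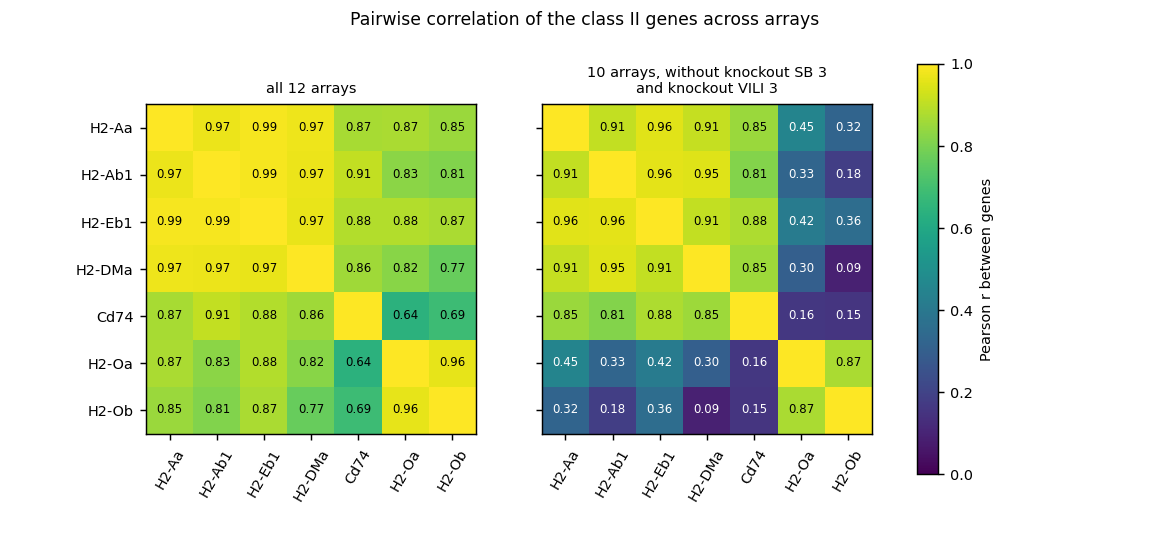
Pearson correlation between each pair of the 7 class II genes tested, over all 12 arrays (left) and over the 10 arrays without knockout SB replicate 3 and knockout VILI replicate 3 (right), with colour and printed value giving r. On the right the 10 pairs among the first 5 genes stay at 0.81 or above, H2-Oa with H2-Ob is at 0.87, and the 10 pairs between these sets lie between 0.09 and 0.45.

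The genes whose pattern was most like the mean of the 7 class II genes over the 12 arrays were Cd72, Pclaf, E330020D12Rik, Ly6d, Pdcd4, Ikzf3, Cd22, Tnfrsf13c, Itgb7 and Bank1, with r from 0.970 to 0.983. That mean was not scaled by gene, so H2-Oa and H2-Ob weighed most in it. They spanned 4.54 and 4.65 (log2) over the 12 arrays, beside 0.78 (H2-Aa) to 1.44 (H2-DMa) for the others. Cd72, Cd22, Tnfrsf13c and Bank1 are genes of B cells, and Cd22 and Bank1 stood on the B cell list. Over the 10 remaining arrays their r was 0.732 to 0.880, and 2 of the 10 (Cd72 and Ly6d) were among the 10 most alike there. After subtraction of group means, Myo1g (r = 0.994) and Bbip1 (r = 0.991) came first, and 5 of the 10 were shared with the first list. All of these values are over the same arrays, 2 of which are the highest for every class II gene tested.

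**Figure D5:**
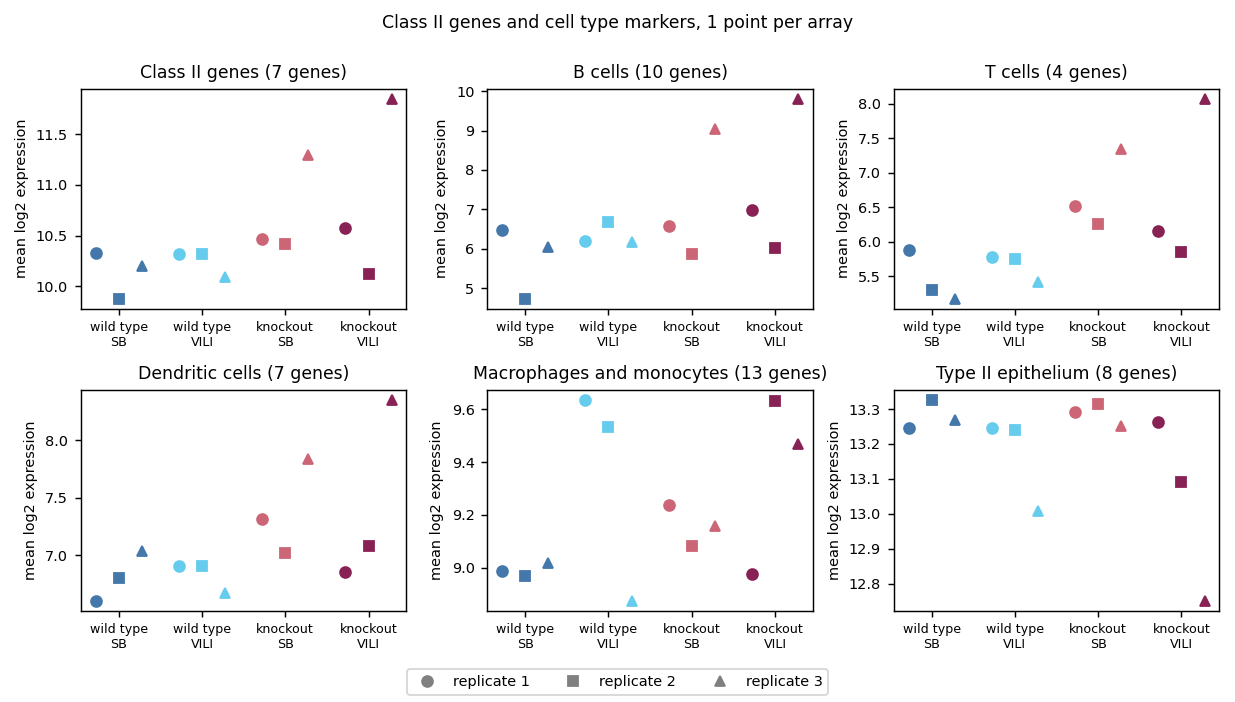
Mean log2 expression (vertical axes, scaled separately) of the 7 class II genes tested and of 5 cell marker lists on each of the 12 arrays, by group, with the symbol giving the replicate number. Knockout SB replicate 3 and knockout VILI replicate 3 are highest for the class II genes and for the B, T and dendritic cell markers, and not for the macrophage and monocyte markers.

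Of the other class II genes, H2-DMb2 had the largest genotype difference under SB. Its probe set with the largest difference averaged 5.84 ± 0.44 (SD, n = 3) in wild type SB lungs, 7.0 ± 0.41 in wild type VILI lungs, 7.81 ± 0.92 in knockout SB lungs and 8.08 ± 1.38 in knockout VILI lungs. The difference in SB was 1.97 ± 0.62 (SE, log2; limma over probe sets, adjusted p = 0.341), and the other 2 probe sets of H2-DMb2 gave 1.24 and 1.10. In the fit without both knockout replicate 3 arrays these were 1.44 ± 0.30 (adjusted p = 0.0909), 0.50 and 0.34. For VILI minus SB in wild type lungs the first probe set gave 1.16 ± 0.62 (limma over probe sets, adjusted p = 0.329). Without both knockout replicate 3 arrays it gave 1.16 ± 0.27 and passed (limma over probe sets, adjusted p = 0.0483). The other 2 probe sets of H2-DMb2 gave 0.44 and 0.35 there and did not pass (limma over probe sets, adjusted p 0.311 and 0.503). The share of all probe sets called in that fit is not given. At the level of genes 5.94% of all genes were called without both arrays, and 0 of the 2 other class II genes tested. In knockout lungs the first was at 0.0060 in that fit. H2-Ea, the alpha chain partner of H2-Eb1, read 4.44 to 5.64 on its brightest probe set and 2.06 to 3.02 on the other 2, and its genotype difference in SB was -0.13 ± 0.21 (-0.26 ± 0.21 without the 2 arrays). H2-Eb2 read 2.42 to 5.88, the highest value being knockout VILI replicate 3.

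Among the genes that control class II transcription, Rfxank, a subunit of the X box factor RFX, was lower after VILI. It read 5.02, 5.42 and 5.65 in wild type SB lungs, 4.81, 4.68 and 4.84 in wild type VILI lungs, 6.29, 5.58 and 5.64 in knockout SB lungs, and 4.61, 4.88 and 5.11 in knockout VILI lungs. In the knockout it fell by 0.97 ± 0.23 (SE, log2; limma, adjusted p = 0.0378), and averaged over genotypes by 0.78 ± 0.16 (adjusted p = 0.00959), with every VILI array below every SB array of its genotype. The wild type value alone was -0.59 ± 0.23 (adjusted p = 0.176). The averaged fall kept its call in each of the 12 fits that left out 1 array (adjusted p 0.00767 to 0.0294) and without both knockout replicate 3 arrays (0.0138), whereas the call in the knockout was lost in 9 of the 12 (up to 0.117) and without both (0.0704). The RFX subunits Rfx5 and Rfxap were not past the threshold in any comparison. Averaged over genotypes, Creb1, which binds beside the X box, fell by 0.40 ± 0.12 after VILI (limma, adjusted p = 0.0381), and Spi1, a myeloid transcription factor, rose by 0.69 ± 0.20 (adjusted p = 0.0383). Leaving out 1 array ended the call of Creb1 in 8 of 12 fits (adjusted p up to 0.0893) and that of Spi1 in 9 of 12 (up to 0.0932), and Spi1 was not called without both knockout replicate 3 arrays (0.0694). In all, 1 of 18 such genes tested rose and 2 fell in that average, against 17.8% of all genes called. The class II genes themselves had 0 of 7 called there, and 0 with an unadjusted p under 0.05, against 33.9% of all genes. For knockout against wild type 0 of 18 passed in either treatment, with a median of 0.10 in SB and 0.18 after VILI (0.0035 and 0.12 without the 2 knockout replicate 3 arrays).

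The calls among other genes of the pathway were few, and they are read against the 17.8% of all genes called in the averaged VILI comparison. Of 6 genes tested on the interferon gamma pathway, which induces Ciita, 0 passed in any of the 7 contrasts. Below the filter, Ifng itself read 2.41 to 2.47 on all arrays, Socs1 1.35 to 1.37 and Il12b 2.25 to 2.65. The brighter Cxcl9 probe set, also below it, read 5.09 in knockout SB replicate 3, 6.86 in knockout VILI replicate 3 and 2.34 to 3.55 on the other 10 arrays. The other Cxcl9 probe set read 2.59 to 3.14. Of 11 endosomal processing genes, Ctsh, a lysosomal cysteine protease, rose by 0.36 ± 0.10 (SE, log2) after VILI averaged over genotypes (limma, adjusted p = 0.0362), and the other 10 were not called. The call of Ctsh was lost in 8 of the 12 fits that left out 1 array (adjusted p up to 0.0839). Of 7 genes of surface turnover and costimulation, Marchf1, the ubiquitin ligase that removes class II from the surface, rose by 1.19 ± 0.25 in that average (adjusted p = 0.00941). It read 6.89, 5.83 and 6.48 in wild type SB lungs, 7.38, 7.93 and 7.16 in wild type VILI lungs, 6.85, 6.17 and 7.13 in knockout SB lungs, and 7.52, 7.98 and 8.55 in knockout VILI lungs, so the VILI arrays lay above the SB arrays in each genotype. Marchf1 kept its call in each of the 12 fits that left out 1 array (adjusted p 0.00671 to 0.0289) and without both knockout replicate 3 arrays (0.0173). In the same average all 7 neutrophil markers tested rose, with a median of 2.83, and 2 of 8 markers of the class II-bearing type II epithelium, Sftpc and Slc34a2, fell by 0.20 and 0.40. Of the macrophage and monocyte markers, 3 of 13 (Ccr2, Cd14 and C1qb) rose and 0 fell, against 17.8% of all genes called. Leaving out 1 array ended the call of Ccr2 in 9 of 12 fits (adjusted p up to 0.108) and that of C1qb in 8 (up to 0.0759), and without both knockout replicate 3 arrays C1qb (0.0501) and Cd14 (0.0572) were not called. The part of these cells in the differences of Rfxank, Ctsh and Marchf1 was not tested.

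Class I presentation genes, set beside class II for comparison, were nearly all without a call after VILI. Averaged over genotypes, 0 of 13 tested were positive, the median was -0.16, and 1 of 13 was called: Psmb10, an immunoproteasome subunit, fell by 0.39 ± 0.11 (SE, log2; limma, adjusted p = 0.0300), against 17.8% of all genes called. The call of Psmb10 was lost in 7 of the 12 fits that left out 1 array (up to 0.0708). The 7 class II genes had a median of -0.013 with 3 of 7 positive in the same average, and the difference between the lists was not tested. In the order H2-Aa, H2-Ab1, H2-Eb1, Cd74, H2-DMa, H2-Oa and H2-Ob they gave 0.0046, -0.064, -0.013, -0.17, -0.10, 0.52 and 0.63 (limma, adjusted p 0.457 to 0.981). Without both knockout replicate 3 arrays these were -0.031, -0.089, -0.065, -0.12, -0.21, 0.12 and 0.43 (limma, adjusted p 0.273 to 0.810). For knockout against wild type in SB, 9 of 13 class I genes were positive with a median of 0.11 and 0 passed, beside 7 of 7 with a median of 0.45 for class II. With both knockout replicate 3 arrays left out, 6 of 13 class I genes were positive in SB, with a median of -0.0013, and the class II genes were again all positive.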

How the data were processed

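Lung RNA of 12 mice was hybridised to single-colour Affymetrix mouse arrays. The authors deposited log2 expression values per probe set, already normalized. Per the submitters' processing notes MAS5 and GCRMA were used, with no role, order or version, so which of them made the values is unknown, and values near the lower end stand for little or no signal. They were used without further scaling. Gene names came from the platform annotation: 34945 probe sets had 1 symbol, 932 several and 9160 none. With RefSeq (GRCm38.p6), 34741 matched and 0 symbols changed.

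After the 64 control probe sets were left out, 23082 of 45037 passed the filter (3 of 12 arrays above the array median), giving 10996 genes. limma 3.58.1 in R 4.3.3 (with data.table, version 1.17.8) fitted 4 group means to all arrays, with empirical Bayes moderation and trend (8 residual and 3.36 prior degrees of freedom). The 7 contrasts were two-sided with Benjamini-Hochberg adjustment at 0.05. The script was tested on simulated data. The labels do not say whether the mice were paired, and p-values measure the spread between these arrays. Same-numbered arrays of wild type SB and knockout SB deviated together from their group means (r = 0.231, 0.526 and 0.318), so the replicate number was taken to pair these 2 groups, from the data and not from the labels. The main fit did not use this pairing, and the fits with the replicate block did. In no other pair of groups did all 3 numbers exceed 0.1.

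The 9 class II genes, the marker and pathway lists and the motifs were chosen with earlier results of these data known. The 7 class II genes tested are named in each comparison. Of the lists, the genes past the threshold are named, up to 5 a list. The most alike genes were the 10 with the highest Pearson correlation with the unscaled mean of the 7 class II genes. Probe sets and correlations with marker lists are described without set tests. Alternatives were no filter or a stricter one, quantile normalization, centred arrays, the mean of all probe sets, each probe set by itself, no variance trend, only the groups compared, the replicate block, and fits without single arrays.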

Additional observations from a re-analysis of the deposited data

How the results depend on the processing

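Of the 7 class II genes tested, 0 were past the threshold in all 152 alternative fits and contrasts. Among 1064 recomputed differences 0 were past it and 981 kept their sign. The lowest adjusted p was 0.0678 (H2-Ab1, averaged genotype difference, no filter). The genotype difference kept its sign in all 161 values in SB and all 147 averaged over treatments. The other 83 values changed sign, 65 of them with 1 array left out, and the cause was not tested. Their lowest adjusted p was 0.473. With the mean of all probe sets of a gene, the VILI difference was 0.17 for H2-Aa and 0.18 for H2-Ab1 in wild type, 0.00026 for H2-Ab1 in knockout and 0.092 for H2-Ab1 averaged over genotypes. Quantile normalization gave 0.00054 for H2-Aa in wild type. With arrays centred on their medians, VILI differences were -0.036 for H2-Aa and -0.014 for H2-Eb1 in knockout and -0.034 for H2-Aa averaged, and the interaction of H2-Aa was -0.0044. Without both knockout replicate 3 arrays, VILI differences in knockout were -0.061 for H2-Aa, -0.070 for H2-Eb1 and -0.18 for H2-Oa, and -0.031 for H2-Aa averaged. The interaction was then -0.059 for H2-Aa, -0.0097 for H2-Eb1, -0.61 for H2-Oa and 0.0079 for Cd74, and the genotype difference of H2-Oa after VILI was -0.084. In SB that of Ciita was -0.14 and the class I median -0.0013, both chosen for this check after the data were seen. With 1 array left out, the VILI difference in wild type ran from -0.084 to 0.074 for H2-Aa, -0.15 to 0.031 for H2-Ab1, -0.15 to 0.062 for H2-Eb1, -0.20 to 0.022 for Cd74 and -0.23 to 0.075 for H2-DMa. Likewise, the VILI difference in knockout ran from -0.16 to 0.12 for H2-Aa, -0.28 to 0.11 for H2-Ab1, -0.27 to 0.24 for H2-Eb1, -0.36 to 0.036 for Cd74, -0.45 to 0.076 for H2-DMa, -0.66 to 1.49 for H2-Oa and -0.48 to 1.49 for H2-Ob. Likewise, the knockout minus wild type difference after VILI ran from -0.084 to 2.07 for H2-Oa. Likewise, the interaction ran from -0.16 to 0.13 for H2-Aa, -0.22 to 0.17 for H2-Ab1, -0.21 to 0.31 for H2-Eb1, -0.24 to 0.16 for Cd74, -0.36 to 0.16 for H2-DMa, -1.09 to 1.06 for H2-Oa and -1.14 to 0.82 for H2-Ob. Likewise, the averaged VILI difference ran from -0.082 to 0.060 for H2-Aa, -0.17 to 0.021 for H2-Ab1, -0.17 to 0.092 for H2-Eb1 and -0.11 to 0.96 for H2-Oa.

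With the replicate block, 0 class II genes passed in any contrast. In SB, where the numbers were taken to pair the arrays, the adjusted p with the block ran from 0.395 for H2-Ab1 to 0.567 for H2-Oa, and from 0.264 to 0.417 when only the SB arrays were fitted with the block, a fit chosen after the data were seen. The block changed no call of a class II gene. Counts over all genes moved more. They were 290 for VILI in wild type (19 to 487 with 1 array left out, 112 without the filter, 442 with the replicate block, 475 with only the groups compared, 653 without both knockout replicate 3 arrays) and 491 for VILI in knockout (69 to 713 with 1 array left out, 306 without the filter, 110 without both, 11 with only the groups compared). They were 50 for the averaged genotype difference (22 to 161 with 1 array left out, 23 without the filter, 28 without both), 11 for the genotype difference after VILI (8 to 42 with 1 left out) and 1958 for the averaged VILI difference (1128 to 2084). Ciita and other probe sets near the lower end of the scale are limited by low signal.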

Other observations

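Markers of structural cells moved with VILI on these arrays while the 7 class II genes tested had no call. Apart from the type II epithelium, structural cells are not known as main carriers of class II. Averaged over genotypes, 5 of 8 endothelial markers fell (limma with Benjamini-Hochberg adjustment): Sox17 by 1.16, Eng by 0.77, Tek by 0.67, Kdr by 0.62 and Pecam1 by 0.31 on the log2 scale. Of the 6 type I epithelial markers, Rtkn2 fell by 1.10 and Cav1 by 0.25, the call of Cav1 being lost in 4 of the 12 fits that left out 1 array (adjusted p up to 0.0558). All 5 club and ciliated cell markers fell, from Scgb1a1 at -0.20 to Tekt4 at -1.34, and 1 of them (Scgb3a2) lost its call in 1 of the 12 (adjusted p 0.0505). Of all genes, 17.8% were called in this average. The neutrophil markers with the largest rises were Mmp8 at 4.90, S100a9 at 3.10, Cxcr2 at 2.89, S100a8 at 2.83 and Csf3r at 2.43. In the averaged genotype comparison, Vwf, the endothelial von Willebrand factor, was the single cell marker called, 0.57 ± 0.08 (SE) lower in the knockout (adjusted p = 0.00926, and 0.0559 without both knockout replicate 3 arrays).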
